A study of Mus musculus with 12 samples.

Results

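Cholic acid (CA) was compared with ursodeoxycholic acid (UDCA) in the liver of mice that lack Abcb4, by the knockout over wild-type ratio of each gene under each diet. The members were chosen by diet alone: the 6 arrays of CA-fed and the 6 arrays of UDCA-fed knockout liver, which are all 12 arrays of the series. Abcb4 (-/-) mice had received CA or UDCA, and the source labels of both diets read 9 weeks. Each array carried liver RNA of 1 knockout mouse in one dye against liver RNA of Abcb4 (+/+) mice in the other. Each diet had 5 livers on 6 arrays, without pooling, so 1 array per diet is a second hybridisation of a liver that the labels do not identify. The labels give CA as the diet meant to raise disease activity and UDCA as the diet meant to lower it. They do not give the doses, what the wild-type mice ate, their strain, sex or age, or whether the same wild-type RNA recurs on several arrays. The doses of the bile acids could therefore not be matched, and every difference below is between these feeding groups.

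Abcb4 is the transporter that moves phosphatidylcholine across the canalicular membrane of the hepatocyte into bile. Without it, bile acids are not held in phospholipid micelles, and the knockout mouse develops bile duct injury, a ductular reaction and fibrosis around the portal tracts. CA is a hydrophilic primary bile acid that hepatocytes make with the help of the sterol 12-alpha-hydroxylase Cyp8b1, and it activates the nuclear receptor FXR. UDCA is a still more hydrophilic bile acid used as a drug in cholestatic liver disease, and it is at most a weak ligand of FXR. In structure UDCA lacks a hydroxyl group that CA carries and holds another in the opposite orientation. The liver answers bile acid load by lowering synthesis and uptake and by raising export, sulfation, glucuronidation and oxidation, partly through the xenobiotic receptor CAR and its Cyp2b targets.

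The genes that lay farthest apart between the diets on opposite sides of wild type were Cyp2b9 and Cyp2b13, cytochromes P450 of the Cyp2b family. Their promoters are shown because they are nearly the same. The 250 bases before each start were identical at 248 of 250 positions (99.2%), counted from 1 at the 5′ end, and the capitals mark the 2 differences, T48C and C104T with Cyp2b9 written first. The sequences are from RefSeq (GRCm38.p6, plus strand), chr7:26173159-26173408 for Cyp2b9 and chr7:26061245-26061494 for Cyp2b13.
Cyp2b9: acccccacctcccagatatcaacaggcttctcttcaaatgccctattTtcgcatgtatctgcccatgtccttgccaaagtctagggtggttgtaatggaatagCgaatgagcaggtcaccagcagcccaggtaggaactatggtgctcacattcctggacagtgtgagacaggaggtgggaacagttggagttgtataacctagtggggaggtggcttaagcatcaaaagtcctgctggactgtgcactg
Cyp2b13: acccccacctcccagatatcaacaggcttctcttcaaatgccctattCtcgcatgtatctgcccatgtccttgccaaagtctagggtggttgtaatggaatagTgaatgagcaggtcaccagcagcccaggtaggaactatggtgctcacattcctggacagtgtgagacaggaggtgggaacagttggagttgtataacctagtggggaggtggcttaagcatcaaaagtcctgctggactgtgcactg
The same stretch of Cyp2b10, the best known CAR target of the family, matched that of Cyp2b9 at 126 of 249 aligned positions (50.6%). How far the probes of such similar genes read each other's RNA was not tested.

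Promoters of replication, YAP target and interferon genes are shown because each group held members that were higher with CA. Capitals mark the motif of each group: TTTCGCGC or TTTGGCGC, the letters of the E2F site, in Mcm6 (chr1:128359706-128359955, minus strand) and Uhrf1 (chr17:56304063-56304312, plus strand); GGAATG, the core that TEAD factors bind, in Ankrd1 (chr19:36119845-36120094, minus strand) and Ccn1 (chr3:145649986-145650235, minus strand); and the core of the interferon-stimulated response element in Gbp3 (chr3:142559794-142560043, plus strand).
Mcm6: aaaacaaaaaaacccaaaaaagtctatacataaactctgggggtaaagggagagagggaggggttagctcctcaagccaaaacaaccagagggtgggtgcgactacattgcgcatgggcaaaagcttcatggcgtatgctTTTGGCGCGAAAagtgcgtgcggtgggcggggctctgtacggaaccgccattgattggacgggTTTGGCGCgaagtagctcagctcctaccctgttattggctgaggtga
Uhrf1: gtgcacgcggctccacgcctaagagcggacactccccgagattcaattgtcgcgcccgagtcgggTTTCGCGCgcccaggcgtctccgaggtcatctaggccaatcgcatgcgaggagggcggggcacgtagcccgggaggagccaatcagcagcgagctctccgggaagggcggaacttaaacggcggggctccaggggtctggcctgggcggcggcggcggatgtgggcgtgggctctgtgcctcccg
Ankrd1: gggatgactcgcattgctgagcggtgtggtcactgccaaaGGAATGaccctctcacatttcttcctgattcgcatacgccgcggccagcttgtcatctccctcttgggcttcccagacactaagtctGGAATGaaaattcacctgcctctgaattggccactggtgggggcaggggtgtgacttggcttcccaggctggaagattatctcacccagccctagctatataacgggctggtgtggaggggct
Ccn1: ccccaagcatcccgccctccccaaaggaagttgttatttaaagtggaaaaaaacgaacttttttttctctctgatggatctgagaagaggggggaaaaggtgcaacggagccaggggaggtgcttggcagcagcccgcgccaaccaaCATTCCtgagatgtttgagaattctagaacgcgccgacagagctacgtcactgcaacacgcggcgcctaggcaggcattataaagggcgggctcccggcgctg
Gbp3: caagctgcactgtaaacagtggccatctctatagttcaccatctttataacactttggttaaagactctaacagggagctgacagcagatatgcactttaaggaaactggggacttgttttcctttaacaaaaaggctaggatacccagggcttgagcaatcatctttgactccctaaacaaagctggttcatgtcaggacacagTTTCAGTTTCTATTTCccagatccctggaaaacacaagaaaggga
These 5 were picked among the members that held a match. Both strands of the 250 bases before the start were searched for 13 motifs. TTTCGCGC was in 4 of 24 replication promoters and in 0.3% of the promoters of all 27025 genes in the table, and TTTGGCGC in 3 of 24 and 0.485%; the 2 can overlap, as they do in Mcm6. GGAATG was in 7 of 15 YAP target promoters and in 14.4% of all, and the longer TGGAATGT, which contains it, in 1 of 15 and 1.36%. The core of the interferon-stimulated response element was in 11 of 21 interferon promoters and in 3.46% of all. Of the genes with a match, 2 of the 4 with TTTCGCGC and 2 of the 3 with TTTGGCGC were higher with CA than with UDCA by the test given below. So were 5 of the 7 with GGAATG and 4 of the 11 with the interferon element. Of all genes 20.1% were higher, and of the whole lists 17 of 30 replication, 12 of 20 YAP target and 10 of 27 interferon genes. Whether a match went with a call was not tested. The antioxidant response element TGACNNNGC was in 8 of 24 NRF2 and glutathione promoters and in 11.5% of all, and TTTGAA, the cell cycle homology region, in 9 of 25 mitosis promoters and in 18.3% of all. Of these holders, 2 of the 8 were lower with CA (12 of 27 in the list, 9.28% of all genes). Of the 9, 1 was higher (3 of 29 in the list, 20.1% of all genes). Among promoters of immediate early genes, TGANTCA was in 0 of 18 (7.82% of all), TGACGTCA in 2 of 18 (1.77%) and the serum response element in 0 of 18 (0.074%). The sterol response element was in 0 of 15 sterol synthesis promoters (0.0814% of all), the PPAR-type direct repeat in 0 of 13 lipid droplet promoters (0.0407%) and the CAR-type direct repeat in 0 of 14 Cyp2b and CAR target promoters (0.0148%). A match is a description of these letters only.

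Each array gives the knockout signal over the wild-type signal, here on the log2 scale, so that 1 is a doubling. The difference between diets is the mean ratio with CA minus that with UDCA, with the dye of the knockout as a covariate. It is given with its standard error (SE) and the p of limma's moderated test, adjusted by the Benjamini-Hochberg method over 21666 tested probes, and called under 0.05. Each gene is read by its brightest tested probe. Of 12993 genes, 2606 were higher with CA (20.1%) and 1206 were lower (9.28%), or 29.3% in all. Against wild type, 39.6% of genes were higher and 22.5% lower with CA, and 19.2% and 8.8% with UDCA. Counts of called members in the lists below are to be read against these shares. Among those called between the diets, 889 were at least 2-fold higher with CA and 256 at least 2-fold lower. The 6 CA ratios did not overlap the 6 UDCA ratios in 978 and 417 called genes, 10.7% of all tested. Of the 2606, 1000 were above wild type under both diets and 1470 with CA alone; of the 1206, 255 were below wild type under both diets and 709 with CA alone. The median difference over all genes was 0.08. The split between higher and lower calls depended on the processing: with arrays centred on their medians and no loess it was 519 against 65, and with only probes well above background in both channels on all 12 arrays it was 1199 against 1035. The direction of every ratio follows from the dyes in the labels. The deposited series table holds the UDCA columns with the same sign (correlation 0.681 to 0.9699 over probes) and the CA columns with the opposite sign (-0.984 to -0.878).

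**Figure D1:**
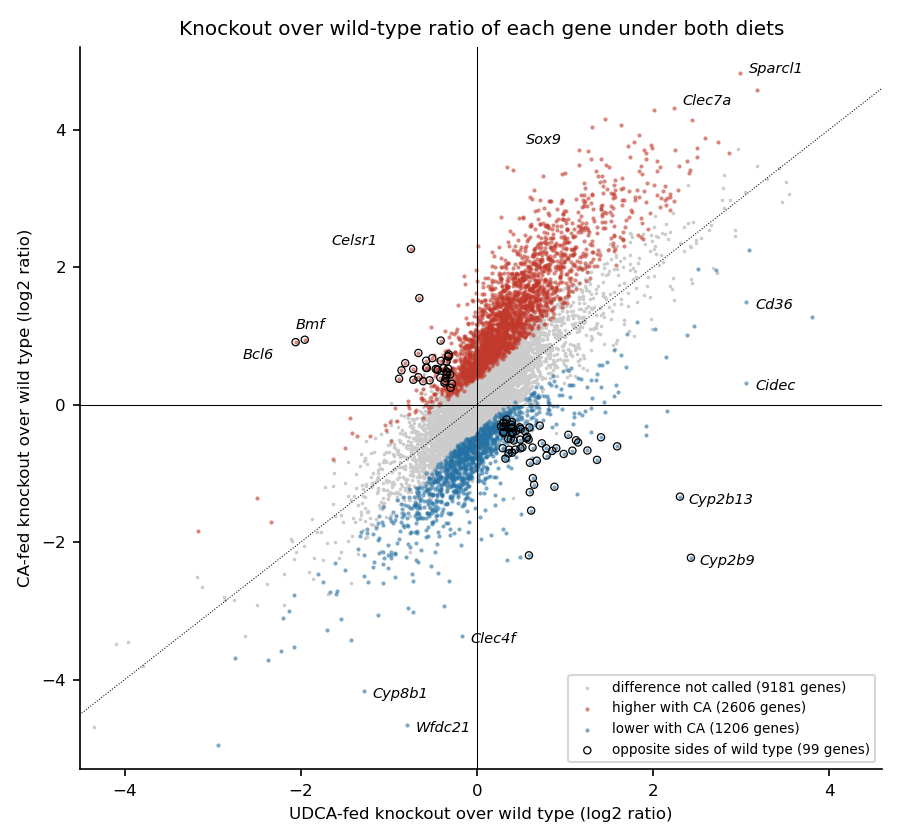
Each point is a gene, placed by its fitted log2 knockout over wild-type ratio with UDCA (x axis) and with CA (y axis); the dotted line marks equal ratios. Red and blue points are the 2606 genes higher and the 1206 lower with CA by limma's test, and rings mark the 99 genes on opposite sides of wild type, among them Celsr1 and Bcl6 at the upper left and Cyp2b9 and Cyp2b13 at the lower right.

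Diet and slide are partly confounded. Slides 1 and 2 held CA arrays and slide 5 a single UDCA array (UDCA 6). Both diets met on slide 3 (CA 5 against UDCA 1 and 2, where diet and dye cannot be told apart) and on slide 4 (CA 6 against UDCA 4 and 5 in the same dye). With slide as a block, 3797 of the 3810 called genes that could be fitted kept their sign and 1451 their call. On slide 4 alone 3681 of the called genes had the same sign. Values with the slide block or within a slide are given beside the main lists and genes, and the loss of a call under the block is stated for each gene it concerns. The mean correlation with the CA arrays was at least that with the other UDCA arrays for UDCA 3 (0.575 and 0.565), UDCA 4 (0.478 and 0.439), UDCA 5 (0.372 and 0.371) and UDCA 6 (0.636 and 0.557), whereas each CA array correlated more with its own diet. Median signals over arrays were 250.2 to 1296 in green and 59.2 to 158.2 in red, and the SD of the ratios was 0.76 to 1.07 on CA arrays and 0.56 to 0.73 on UDCA arrays. The brightest Abcb4 probe was below wild type under both diets (-0.78 with CA, adjusted p = 0.00378; -1.26 with UDCA, adjusted p = 0.000303), and the difference was 0.48 ± 0.29 (SE; adjusted p = 0.228 by limma). That probe was saturated in wild-type RNA on 3 CA and 2 UDCA arrays and read above wild type on CA 1 (0.11) and UDCA 2 (0.35). A second Abcb4 probe without saturation stood at -2.73 with CA and -1.77 with UDCA and was lower with CA (-0.95, adjusted p = 0.0271), so the probes differed in the sign of the difference. The labels do not place the deletion relative to these probes, so neither checks it. Probes of 18 of 21 hepatocyte markers were saturated on at least 6 of the 12 arrays, so this list says little about hepatocyte content. Probes of Abcb11, Abcc3, Anxa3, Baat, Ccl2, Cd34, Ces1f, Col1a1, Cyp2a4, Cyp3a11, Cyp7b1, Slc10a1, Slc22a7, Sparcl1, Spp1, Stmn1, Ugdh and Wfdc21 were saturated in knockout or wild-type RNA on 3 or more arrays of a diet, so that the sizes given for them are not full measures of the difference. Liver was measured whole, so that fewer cells of a type and less RNA per cell cannot be told apart.

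In 99 genes (0.762% of those tested) the diets lay on opposite sides of wild type, each past its own test and the test of the difference: 38 were higher with CA and lower with UDCA, and 61 the reverse. Most lay close to wild type. The median ratios were 0.52 with CA and -0.45 with UDCA in the 38, and -0.52 and 0.55 in the 61, and 26 of the 99 reached 1.5-fold on both sides. The ratios of the diets did not overlap in 28 and 43 of them, and in 978 of the 2606 and 417 of the 1206 genes called higher and lower. The 99 were selected on these same arrays, so this lack of overlap is largely built in and is no separate support. With the slide block 19 of the 38 and 36 of the 61 were still called, and on slide 4 alone 36 and 60 had the same sign. Leaving out 1 array gave 22 to 50 and 37 to 66 genes. They were 22 and 37 without UDCA 1, and 24, 25 and 23 of the first kind without UDCA 2, 4 and 5, while they were 39 and 63 without UDCA 6. With arrays centred on the median they were 1 and 6.

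Cyp2b9 had the largest difference among genes lower with CA. Its ratios were -3.48, -2.29, -2.20, -2.06, -0.60 and -2.73 with CA and 2.63, 1.45, 2.21, 2.41, 1.32 and 4.56 with UDCA. Every CA array was below wild type and every UDCA array above it. The difference was -4.66 ± 0.47 (SE, n = 6 arrays per diet; adjusted p = 2.56e-05 by limma), 25.2-fold. It was -3.90 with the slide block, -4.60 on slide 4 and -2.64 on slide 3. Cyp2b13 ran from -1.98 to -0.42 with CA and from 1.39 to 3.48 with UDCA, a difference of -3.64 ± 0.30 (adjusted p = 6.78e-06), 12.5-fold. Second probes of both genes had smaller differences in the same direction, -2.001 for Cyp2b9 (adjusted p = 0.00135) and -1.05 for Cyp2b13 (adjusted p = 0.011), where the Cyp2b13 probe stood at -0.09 with CA. These were the only genes of the 99 at least 2-fold from wild type on both sides.

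Celsr1, an atypical cadherin of the planar cell polarity pathway, was the clearest case in the other direction. It stood at 1.85, 1.61, 2.66, 2.33, 2.23 and 2.90 with CA and at -0.98, -1.11, -0.45, -0.20, -1.01 and -0.74 with UDCA. No array crossed the wild-type level in either diet. The difference of 3.01 ± 0.21 (adjusted p = 3.81e-06) was 3.52 with the slide block, 3.50 on slide 4 and 3.28 on slide 3. Bcl6, a transcriptional repressor of lipid and sex-biased genes in liver, read 1.36, 1.29, 1.16, 0.70 and -0.16 on 5 CA arrays and -3.51, -0.67, -3.27, -1.10 and -1.94 on 5 UDCA arrays, with 1 array of each diet flagged and left out. Its difference of 2.97 ± 0.51 (adjusted p = 0.00115) had an adjusted p of 0.0514 with the slide block. Bmf, a BH3-only protein that promotes apoptosis, differed by 2.90 ± 0.41 (adjusted p = 0.000218), but a second Bmf probe was below wild type under both diets (-1.30 and -1.65) and did not differ past the threshold (0.34, adjusted p = 0.396). Maff, a small MAF transcription factor, lay at 1.19 to 2.40 with CA and at -1.39 to 0.55 with UDCA (2.20 ± 0.31, adjusted p = 0.000219). Gadd45a, a stress-induced growth arrest gene, lay at 0.49 to 0.81 and at -1.43 to -0.20 (1.42 ± 0.20, adjusted p = 0.000238).

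Others higher with CA and lower with UDCA were Irf5, a transcription factor expressed in macrophages (1.21 ± 0.21, adjusted p = 0.000901), and Ctsc, the lysosomal protease cathepsin C (1.35 ± 0.16, adjusted p = 6.77e-05). The phospholipase Plaat3 differed by 1.10 ± 0.17 (adjusted p = 0.000332) and Fam117b by 1.41 ± 0.27 (adjusted p = 0.0015), although 2 further Fam117b probes (0.36 and 0.29) were not called. Ptgds, a prostaglandin D synthase, differed by 1.24 ± 0.21 (adjusted p = 0.000728) and lost its call with the slide block (0.92, adjusted p = 0.136).

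Of the genes lower with CA and higher with UDCA, Gldc, the glycine decarboxylase of mitochondria, stood at -0.59, -0.94, -0.51, -0.37, -1.26 and -1.16 with CA and at 1.69, 1.69, 1.21, 1.15, 1.22 and 1.22 with UDCA. The diets were on opposite sides on every array, and the difference was -2.17 ± 0.17 (adjusted p = 4.79e-06; -2.59 with the slide block). Gclc, the catalytic subunit of the enzyme that limits glutathione synthesis, differed by -1.75 ± 0.21 (adjusted p = 7.3e-05), with CA ratios of -1.20 to 0.30 and UDCA ratios of 0.78 to 1.30. Gstm4, a glutathione transferase, differed by -2.08 ± 0.24 (adjusted p = 5.32e-05), the aldehyde oxidase Aox1 by -1.53 ± 0.16 (adjusted p = 2.62e-05) and the glucuronosyltransferase Ugt2b35 by -1.53 ± 0.18 (adjusted p = 5.71e-05). The nucleotidase Entpd5, the ubiquitin ligase Rnf125 and the lipid droplet protein Plin4 differed by -1.70, -1.50 and -1.92 (adjusted p = 4.35e-05, 0.00148 and 0.000661). Plin4 lost its call with the slide block (-1.66, adjusted p = 0.052). Abcc2, which exports conjugated bilirubin and bile acids across the canalicular membrane, lay at -0.98 to -0.24 with CA and at 0.29 to 0.82 with UDCA, a difference of -1.26 ± 0.13 (adjusted p = 3.47e-05; -1.23 with the block, -1.26 on slide 4, -0.83 on slide 3).

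**Figure D2:**
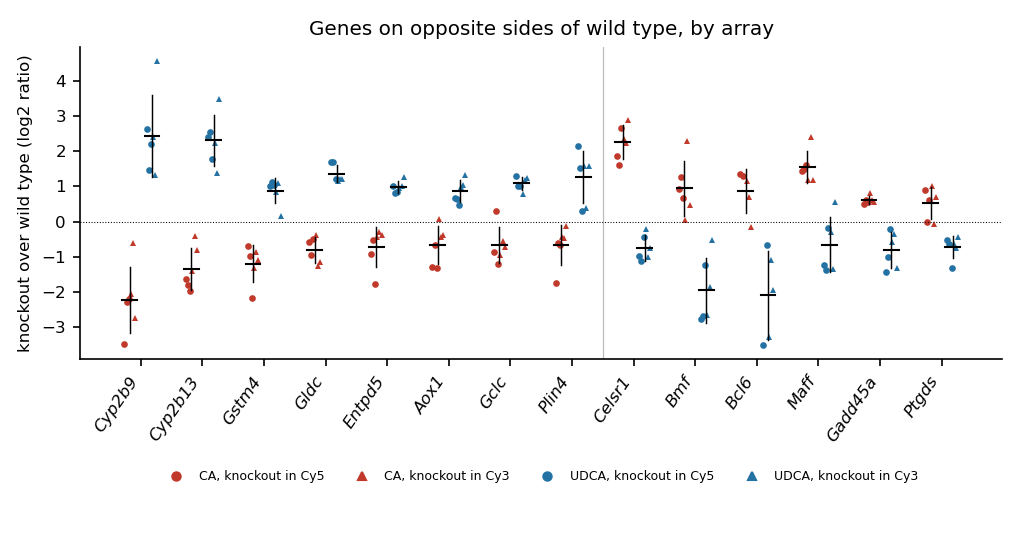
Log2 knockout over wild-type ratios, by array, of genes that lay on opposite sides of wild type under the diets: red for CA, blue for UDCA, circles where the knockout was in Cy5 and triangles where it was in Cy3, bars the mean ± SD of the arrays. Cyp2b9 lies between -3.48 and -0.60 with CA and between 1.32 and 4.56 with UDCA, and Celsr1 lies the other way.

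Among the 13 measured genes of the Cyp2b and CAR target list, 8 were lower with CA and 2 higher. The list's median difference was -1.28 (-1.14 with the slide block, -1.17 on slide 4, -2.08 on slide 3), and its median ratio was -0.45 with CA and 1.16 with UDCA. By array the list's median was -1.01 to -0.26 with CA. It was 0.03 on UDCA 4, -0.10 on UDCA 5 and 1.21 to 1.71 on the other UDCA arrays. Cyp2b10 stood at -0.62, -1.02, -0.42, -0.61, -0.04 and 0.03 with CA and at 2.32, 2.26, 1.40, 1.66, 0.99 and 2.87 with UDCA (difference -2.36 ± 0.28, adjusted p = 6.77e-05). It rose against wild type with UDCA (1.92, adjusted p = 5.67e-06) and did not pass the test with CA (-0.45, adjusted p = 0.0672). Cyp2c55, another P450 of this group, was above wild type under both diets, by 1.27 with CA and 3.81 with UDCA, and differed by -2.54 ± 0.36 (adjusted p = 0.000263). Cyp2a4, a steroid hydroxylase more abundant in female liver, differed by -2.71 ± 0.30 (adjusted p = 3.9e-05), with ratios that also followed the dye. Nr1i3, which encodes CAR, was below wild type under both diets (-1.97 with CA and -1.12 with UDCA) and lower with CA by 0.85 ± 0.18 (adjusted p = 0.00351).

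Of 26 other xenobiotic P450s measured, 11 were lower with CA and 0 higher, with a median difference of -0.86 (-0.56 with the slide block, -0.55 on slide 4), and probes of 15 of them were saturated on at least 6 of the 12 arrays. It was -2.41 on slide 3, where diet and dye cannot be told apart. The list's medians by array followed the dye of the knockout. With CA they were -0.29 to 0.85 in Cy5 and -2.25 to -1.94 in Cy3, and with UDCA 0.15 to 1.30 and -1.68 to -0.56. Cyp3a13 lay at -2.22 to -0.84 with CA and 0.07 to 1.02 with UDCA (-1.88 ± 0.19, adjusted p = 2.62e-05). Cyp2c38 was below wild type under both diets (-3.06 and -1.12) and differed by -1.94 ± 0.26 (adjusted p = 0.000144). Cyp3a11, the main xenobiotic Cyp3a of mouse liver, was not called (-0.96 ± 0.35, adjusted p = 0.0554), and its ratios changed sign with the dye. The carboxylesterases Ces2c and Ces1f, which cleave esters of drugs and lipids, fell with CA against wild type by their brightest probes (-2.26 and -2.93) and differed between diets by -2.61 ± 0.31 and -2.56 ± 0.41 (adjusted p = 5.72e-05 and 0.000574). A second Ces2c probe did not pass the test with CA (-0.01, adjusted p = 0.958), stood at 0.82 with UDCA and differed by -0.83 (adjusted p = 0.0133). Ugt2b1, a glucuronosyltransferase, differed by -2.29 ± 0.33 (adjusted p = 0.000219).

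Of 27 NRF2 and glutathione genes, 12 were lower with CA and 0 higher, with a median difference of -0.65 (-0.38 with the block, -0.31 on slide 4, -1.16 on slide 3). The list's medians by array followed the dye of the knockout with UDCA, 1.32 to 1.59 in Cy5 and 0.36 to 0.43 in Cy3. With CA they were -0.09 to 0.81 in Cy5 and -0.11 to -0.02 in Cy3, so that CA in Cy5 overlapped UDCA in Cy3. Probes of 10 of the 27 were saturated on at least 6 of the 12 arrays. Against wild type, 19 of the 27 were higher with UDCA and 8 with CA, where 19.2% and 39.6% of all genes were higher (8.8% and 22.5% were lower). Srxn1, a sulfiredoxin that restores oxidised peroxiredoxins, stood at 0.39, 0.82, 0.71, 0.58, 0.62 and 1.05 with CA and at 1.85, 1.93, 2.14, 2.29, 2.08 and 2.60 with UDCA. It rose under both diets and was 2.74-fold lower with CA (-1.46 ± 0.15, adjusted p = 2.56e-05). Nqo1, a quinone reductase, differed by -0.94 ± 0.23 (adjusted p = 0.00839). Ugdh, which makes UDP-glucuronate, differed by -1.56 ± 0.26 (adjusted p = 0.000659) and lost its call with the slide block (-1.23).

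The largest separation in bile acid synthesis was at Cyp8b1, whose product sets the share of CA in the bile acid pool. Its ratios were -4.47, -3.78, -4.01, -5.44, -3.63 and -3.70 with CA and -0.90, -0.59, -1.66, -1.28, -0.79 and -2.48 with UDCA. It fell under both diets and was 7.41-fold lower with CA (-2.89 ± 0.34, adjusted p = 5.43e-05; -2.47 with the block, -2.67 on slide 4, -2.88 on slide 3). Cyp7a1, the rate-limiting enzyme of the classical pathway, fell under both diets (-1.96 with CA and -2.11 with UDCA), with a difference of 0.15 ± 0.38 (adjusted p = 0.802). A second Cyp7a1 probe gave -0.84 (adjusted p = 0.066). Cyp7b1, of the alternative pathway, fell under both diets as well (-2.80 and -2.87; difference 0.08 ± 0.36, adjusted p = 0.901).

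Of the 16 measured genes of synthesis and conjugation, 4 were lower with CA and 1 was higher. Akr1d1, the bile acid 5-beta-reductase, lay at -1.45 to -0.94 with CA and -0.33 to 0.72 with UDCA (-1.40 ± 0.17, adjusted p = 6.77e-05). Baat, which joins bile acids to taurine, and the thioesterase Acot8 differed by -1.06 ± 0.29 and -0.48 ± 0.16 (adjusted p = 0.0146 and 0.0355), and Cyp39a1, an oxysterol hydroxylase, by 1.01 ± 0.28 (adjusted p = 0.016). None of these 3 kept its call with the slide block. The list's median difference was -0.30, and it was 0.31 on slide 4 and -1.57 on slide 3. On slide 3 diet and dye cannot be told apart. The list's medians by array followed the dye of the knockout. With CA they were -0.69 to 0.18 in Cy5 and -1.86 to -1.57 in Cy3, and with UDCA -0.45 to 0.95 and -1.80 to -0.56. Probes of 8 of the 16 were saturated by the measure used for the hepatocyte markers above. The direction of the list between diets was therefore not settled.

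Among 8 transporters of bile acid and organic anion uptake, 2 were lower with CA and 1 was higher. Slco1a4 stood at -0.35, -0.02, -0.94, 0.06, -0.86 and -0.75 with CA and at 1.59, 1.42, 1.01, 1.72, 1.70 and 1.02 with UDCA (-1.89 ± 0.21, adjusted p = 4.39e-05). Slco1a1 fell under both diets and further with CA (-2.60 and -1.06; difference -1.54 ± 0.20, adjusted p = 0.000112). Slc10a1, the sodium-dependent bile acid importer, fell under both diets (-1.94 and -1.27), with a difference that did not pass the test (-0.67 ± 0.36, adjusted p = 0.176) and that was -1.62 with the slide block (adjusted p = 0.0089). Slc22a7, an organic anion transporter, was higher with CA (1.33 ± 0.32, adjusted p = 0.00722; 0.37 and not called with the block).

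Of 13 measured bile exporters, 5 were lower with CA and 1 was higher, with a median difference of -0.09. With the slide block 1 was lower and 1 higher (median -0.04). Of the 5, 1 was called by its brightest probe (-0.70) and not by 2 further probes (-0.75 and 0.25). Abcb11, the bile salt export pump, showed no call (-0.09 ± 0.35, adjusted p = 0.879), and its ratios followed the dye. The basolateral exporter Abcc3 rose under both diets (0.54 and 1.69) and was lower with CA (-1.15 ± 0.20, adjusted p = 0.000753; not called with the block, -0.70). Abcc4, another basolateral exporter, rose by 2.62 with CA and 2.14 with UDCA (difference 0.48 ± 0.28, adjusted p = 0.22). Slc51b, a subunit of the basolateral bile acid exporter and an FXR target, rose by 2.19 and 1.37 (difference 0.83 ± 0.26, adjusted p = 0.0286), a call that was lost in 14 of 26 alternatives. Nr1h4, which encodes FXR, fell with CA (-0.95, adjusted p = 1.5e-05) and stayed within -0.14 and 0.09 on the UDCA arrays (difference -0.94 ± 0.17, adjusted p = 0.0012). Nr0b2, the repressor SHP that FXR induces, fell under both diets (-0.87 and -0.76; difference -0.11 ± 0.22, adjusted p = 0.741). Klb, the co-receptor for FGF15 on hepatocytes, differed by -1.02 ± 0.19 (adjusted p = 0.00125).

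**Figure D3:**
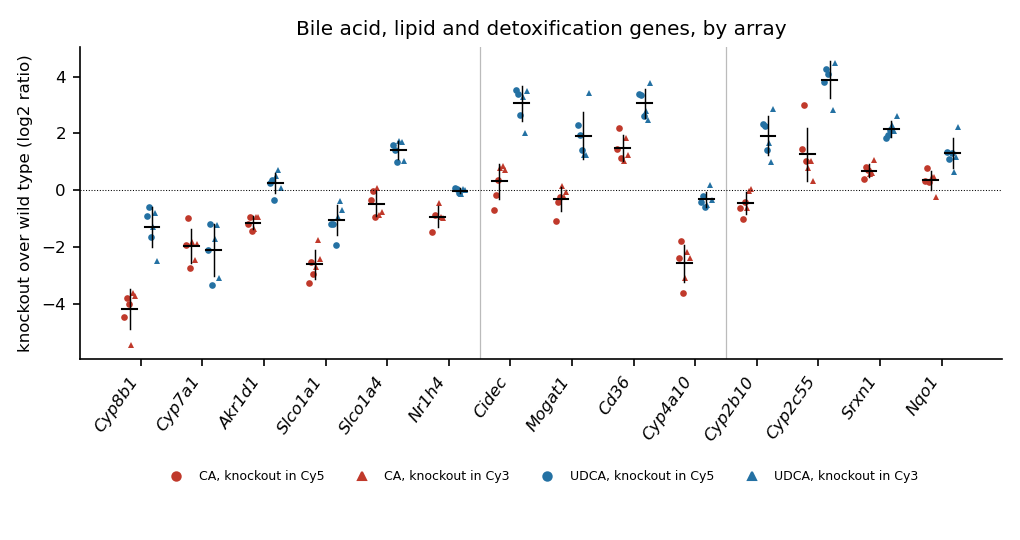
Log2 knockout over wild-type ratios, by array, of genes of bile acid handling (left), lipid storage and oxidation (middle) and detoxification (right): red for CA, blue for UDCA, circles where the knockout was in Cy5 and triangles where it was in Cy3, bars the mean ± SD of the arrays. Cyp8b1 lies at or below -3.63 on the CA arrays and at or above -2.48 on the UDCA arrays, while Cyp7a1 overlaps between the diets.

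Lipid storage genes separated the diets too. Of 18 genes of lipid droplets and fatty acid uptake, 11 were lower with CA and 1 was higher, with a median difference of -0.89 (-0.92 with the block, -0.96 on slide 4, -0.998 on slide 3). Cidec, which enlarges lipid droplets, stood at -0.68, -0.17, 0.35, 0.80, 0.87 and 0.72 with CA and at 3.54, 3.37, 2.65, 3.29, 2.00 and 3.49 with UDCA. The CA ratios lay on both sides of wild type, and the UDCA ratios between 2.00 and 3.54 (difference -2.74 ± 0.30, adjusted p = 3.76e-05). Mogat1, a monoacylglycerol acyltransferase, differed by -2.23 ± 0.32 (adjusted p = 0.000248). Cd36, a fatty acid transporter, rose under both diets, less with CA (1.49 and 3.06; difference -1.57 ± 0.25, adjusted p = 0.000428). Fitm2, which acts in droplet formation, differed by -1.31 ± 0.22 (adjusted p = 0.00061).

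Of 19 genes of lipogenesis and glycolysis, 8 were lower with CA and 1 was higher, with a median difference of -0.63 (-0.87 with the block, -0.61 on slide 4, -1.54 on slide 3). Elovl6, a fatty acid elongase, Acacb, an acetyl-CoA carboxylase, and Me1, the malic enzyme, differed by -1.67, -1.57 and -1.27 (adjusted p = 0.00141, 0.00192 and 0.00986). Scd2, a desaturase, was the member higher with CA: it stood at 2.30 to 3.17 with CA and 0.52 to 1.42 with UDCA (1.79 ± 0.18, adjusted p = 2.37e-05). Among 24 genes of fatty acid oxidation 7 were lower with CA and 0 higher, among them Cyp4a10, a PPAR-alpha target (-2.25 ± 0.26, adjusted p = 5.35e-05), and the carnitine carrier Slc25a20 (-0.85 ± 0.14, adjusted p = 0.000735). Of 20 sterol synthesis genes, 17 were below wild type with CA and 13 with UDCA, and 3 were lower with CA than with UDCA. The median difference was -0.35, and with the slide block it was -0.89 with 8 members lower (-0.58 on slide 4, -1.10 on slide 3). The 3 included Cyp51 and Mvd (-1.19 and -0.97, adjusted p = 0.00293 and 0.0281), and the Mvd call was lost in 12 of 27 alternatives. Insig1, which holds back the processing of SREBP, was not called (-1.17, adjusted p = 0.0502).

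The gene next to Cyp2b9 in size of difference was Wfdc21, a small secreted protein of the whey acidic protein family. It stood at -3.60, -2.69, -4.90, -5.60, -5.06 and -6.08 with CA and at 0.20, 0.54, -1.61, -1.62, -1.81 and -0.45 with UDCA (difference -3.86 ± 0.42, adjusted p = 3.76e-05, 14.5-fold; -4.56 with the block). Every CA array lay below every UDCA array, which was a condition of its choice among the 15 largest differences and is no separate support. Serpina7, thyroxine-binding globulin, was near wild type with CA (-0.09) and rose with UDCA (2.16), a difference of -2.25 ± 0.35 (adjusted p = 0.000625) from 4 UDCA arrays that was not called with the block (-1.98). Of 30 acute phase genes, 10 were lower with CA and 4 higher, with a median difference of -0.44 (-0.12 with the block, -0.01 on slide 4, -0.64 on slide 3). Saa3, a serum amyloid A, lay on opposite sides of wild type (-0.61 with CA and 1.59 with UDCA; difference -2.20 ± 0.19, adjusted p = 7.53e-06). Orm1 and Orm2, the orosomucoids, differed by -1.62 and -1.61 (adjusted p = 0.000382 and 0.000161), but on slide 3 by -0.04 and -0.14. Hamp2, a hepcidin, differed by -1.53 ± 0.28 (adjusted p = 0.00115). The transcription factor Cebpd and the metallothionein Mt2 were higher with CA (1.61 ± 0.19 and 1.58 ± 0.25, adjusted p = 8.34e-05 and 0.000492), Mt2 without a call under the block (1.30). Prlr, the prolactin receptor, was lower with CA (-1.73 ± 0.22, adjusted p = 0.000103).

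Resident macrophage genes and recruited macrophage genes lay on different sides of the comparison. Of 12 Kupffer cell markers 7 were lower with CA and 0 higher, with a median difference of -0.93 (-1.13 with the block, -0.71 on slide 4, -1.65 on slide 3). The list's median ratio by array was between -1.53 and -0.76 with CA and between -0.12 and 0.41 with UDCA. Clec4f, the lectin that defines Kupffer cells, stood at -2.91, -2.52, -4.12, -4.35, -3.42 and -2.89 with CA and at 0.48, -0.14, -0.93, 0.55, -0.09 and -0.89 with UDCA. It fell 9.18-fold further with CA (-3.20 ± 0.34, adjusted p = 3.45e-05) and did not differ from wild type past the threshold with UDCA (-0.17, adjusted p = 0.67). Vsig4, a complement receptor, and Cd5l, a secreted macrophage protein, were below wild type with CA (-1.54 and -2.19) and above it with UDCA (0.62 and 0.59), with differences of -2.16 ± 0.22 and -2.78 ± 0.24 (adjusted p = 2.56e-05 and 8.82e-06). The scavenger receptor Marco and the lectin Clec1b differed by -1.62 and -1.33 (adjusted p = 0.000156 and 0.000407).

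Of 22 markers of monocytes and recruited macrophages, 16 were higher with CA and 0 lower, with a median difference of 1.15 (1.34 with the block, 0.86 on slide 4, 0.98 on slide 3). Ccr2, the receptor that brings monocytes out of the marrow, stood at 4.75, 4.85, 5.22, 3.13, 4.26 and 2.72 with CA and at 1.65, 1.41, 1.43, 0.76, 0.50 and 2.99 with UDCA. The diets overlapped only through UDCA 6 and CA 6, and the difference was 2.70 ± 0.41 (adjusted p = 0.000326); a second Ccr2 probe gave 0.84 (adjusted p = 0.0282). Clec7a, the beta-glucan receptor dectin-1, lay at 3.79 to 4.83 and at 1.60 to 2.70 (2.07 ± 0.20, adjusted p = 2.18e-05), and Ms4a6b differed by 2.55 ± 0.26 (adjusted p = 3.51e-05). Fcer1g, a signalling chain of Fc receptors, differed by 1.45 ± 0.17 (adjusted p = 6.65e-05). Adgre1, an adhesion receptor of mature macrophages, differed by 1.45 ± 0.18 (adjusted p = 0.000126), and a second Adgre1 probe by 0.42 (adjusted p = 0.143).

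Bile duct genes were higher with CA. Of 34 markers of cholangiocytes and the ductular reaction, 20 were higher with CA and 1 was lower, with a median difference of 0.77 (0.70 with the block, 0.60 on slide 4, 0.95 on slide 3); the median ratio was 2.00 with CA and 1.03 with UDCA. Sox9, the transcription factor of the bile duct lineage, stood at 4.14, 4.15, 4.11, 3.34, 3.74 and 2.67 with CA and at 0.93, 1.09, 1.66, 0.80, 0.65 and 2.41 with UDCA. The highest UDCA value was that of UDCA 6, below every CA array, as the choice of Sox9 by lack of overlap required. The difference was 2.43 ± 0.30 (adjusted p = 7.84e-05, 5.4-fold). Pkhd1, fibrocystin of the primary cilium, lay at 3.05 to 4.15 and 0.70 to 1.60 (2.33 ± 0.18, adjusted p = 5.47e-06), and 2 further probes differed by 1.51 and 0.78. Cftr, the chloride channel of ductal secretion, lay at 1.68 to 4.48 and 0.16 to 1.29 (2.47 ± 0.33, adjusted p = 0.000143). Jag1, the Notch ligand of duct formation, differed by 2.21 ± 0.17 (adjusted p = 4.79e-06), and Grhl2, an epithelial transcription factor, by 2.46 ± 0.32 (adjusted p = 0.00012). Krt19, the duct keratin, differed by 1.23 ± 0.28 (adjusted p = 0.00487), and Anxa3, an annexin, by 2.28 ± 0.39 (adjusted p = 0.000807). Spp1, osteopontin, differed by 1.18 ± 0.39 (adjusted p = 0.0384), but by -0.01 on slide 4 and, not called, 0.31 with the block.

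The 15 genes with the largest differences above UDCA and no overlap also held Tbx1, a T-box transcription factor (2.72 ± 0.33, adjusted p = 8.05e-05), Rragd, a GTPase that recruits mTORC1 to the lysosome (2.43 ± 0.33, adjusted p = 0.000143; further probes 0.94 and 0.95), and Ptpn13, a tyrosine phosphatase (2.38 ± 0.34, adjusted p = 0.000231). The membrane protein Tmem130, the scavenger receptor Scara3 and the tubulin Tubb2b differed by 2.57, 2.37 and 2.29 (adjusted p = 0.000114, 4.35e-05 and 2.56e-05). Ccl12, a monocyte chemokine, had a fitted difference of 3.01 ± 0.28 (adjusted p = 1.53e-05). Its wild-type channel was not well above background on any UDCA array, so that this size is not a measured fold. Of the 148 genes named in the text, 98 had both channels well above background on all 12 arrays. The sizes given for the others rest in part on dim signals.

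Of 17 oncofetal and progenitor genes 9 were higher with CA and 0 lower, with a median difference of 1.21 (0.84 with the block, 0.48 on slide 4, 0.99 on slide 3). Epcam, an adhesion molecule of biliary and progenitor cells, stood at 4.25, 4.23, 3.22, 2.90, 3.87 and 2.96 with CA and at 1.52, 1.503, 1.27, 1.07, 0.29 and 2.81 with UDCA (2.16 ± 0.35, adjusted p = 0.000516). The growth factor Mdk, the surface protein Cd24a and the fetal growth factor Igf2 differed by 1.62, 1.38 and 1.21 (adjusted p = 4.14e-05, 0.0137 and 0.00365). Of 20 YAP and TEAD targets 12 were higher with CA and 0 lower, with a median difference of 0.78 (0.79 with the block, 0.57 on slide 4, 0.97 on slide 3). Ankrd1, whose promoter is printed above, stood at 3.98, 3.71, 3.55, 2.44, 3.70 and 2.57 with CA and at 1.10, 1.70, 1.77, 0.82, 0.49 and 2.36 with UDCA (1.95 ± 0.30, adjusted p = 0.000384). Ccn1, a matricellular protein, lay at 1.55 to 2.39 and at -0.16 to 1.15 (1.54 ± 0.21, adjusted p = 0.00014). The receptor kinase Axl and the tissue factor F3 differed by 1.62 and 1.66 (adjusted p = 0.000154 and 0.000437).

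**Figure D4:**
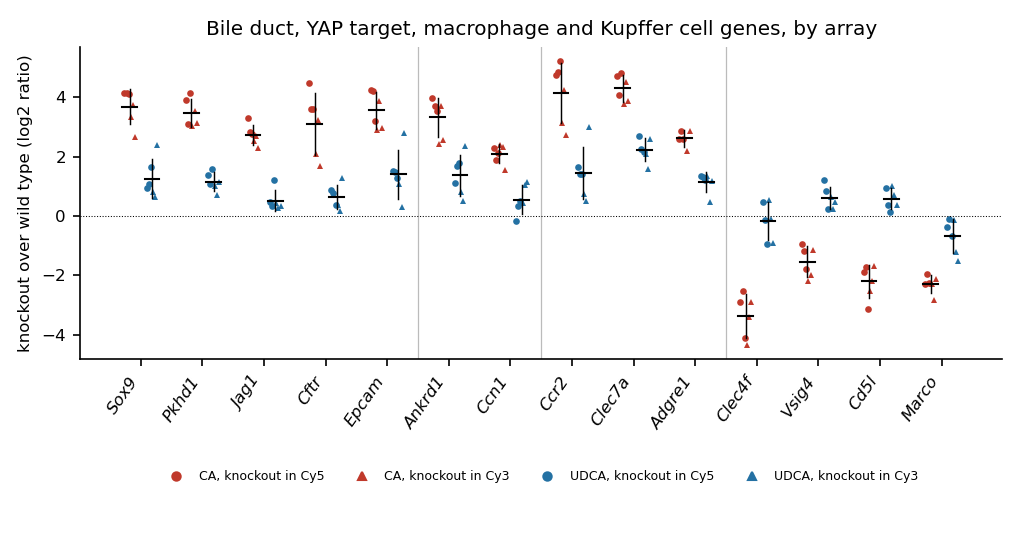
Log2 knockout over wild-type ratios, by array, of bile duct genes, YAP targets, recruited macrophage genes and Kupffer cell genes, from left to right: red for CA, blue for UDCA, circles where the knockout was in Cy5 and triangles where it was in Cy3, bars the mean ± SD of the arrays. The first 3 groups lie higher with CA, with UDCA 6 the nearest UDCA array in Sox9, Epcam, Ankrd1 and Ccr2, and the 4 Kupffer cell genes lie lower.

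Of 28 chemokines and cytokines measured, 12 were higher with CA and 1 was lower, with a median difference of 0.58 (0.67 with the block, 0.36 on slide 4, 0.79 on slide 3). Cx3cl1, fractalkine, rose by 4.14 with CA and 2.44 with UDCA (1.70 ± 0.36, adjusted p = 0.0033), and Cxcl16 by 2.93 and 1.30 (1.63 ± 0.22, adjusted p = 0.000141). Ccl20, which attracts CCR6-bearing lymphocytes, rose with CA (3.03) and did not pass the test with UDCA (0.60, adjusted p = 0.297), where UDCA 6 stood at 2.98 and the other arrays at -0.35 to 0.83. The adhesion molecule Vcam1 differed by 2.08 ± 0.20 (adjusted p = 2.56e-05), and its second probe by 0.80 (adjusted p = 0.0879). Ccl2, the main monocyte chemokine, rose under both diets (1.69 and 2.22) and was not called between them (-0.53 ± 0.54, adjusted p = 0.495), with CA 4 at -1.54 apart from the other CA arrays. Lcn2, lipocalin-2, rose by 2.23 and 2.35 (difference -0.12 ± 0.22, adjusted p = 0.736).

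Of 47 matrix and cross-linking genes, 22 were higher with CA and 0 lower, with a median difference of 0.64 (0.56 with the block, 0.44 on slide 4, 0.54 on slide 3). Most members were above wild type under both diets, 42 with CA and 35 with UDCA. Efemp1, a fibulin, stood at 2.56, 1.63, 2.91, 3.23, 2.61 and 2.68 with CA and at 0.36, 0.64, 0.60, 0.90, 0.17 and 1.02 with UDCA (1.99 ± 0.22, adjusted p = 4.14e-05). Sparcl1, Col8a1 and Fbn1, components of the matrix, differed by 1.84, 1.79 and 1.55 (adjusted p = 0.00117, 7.44e-05 and 0.000528). Col1a1, the main chain of scar collagen, rose by 3.06 with CA and 3.55 with UDCA and its brightest probe, saturated in knockout RNA on 3 CA and 2 UDCA arrays, was not called (-0.48 ± 0.42, adjusted p = 0.418), whereas a second probe without saturation was higher with CA (1.03, adjusted p = 0.0214). Of 23 stellate cell and portal fibroblast markers 10 were higher with CA and 0 lower, with a median difference of 0.35 (0.66 with the block). Pdgfra, a growth factor receptor of fibroblasts, and Rgs5, of pericytes, differed by 1.48 and 1.38 (adjusted p = 0.000471 and 0.000336).

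Antigen presentation and B cell genes were higher with CA in part. Of 9 MHC class II genes 5 were higher and 0 lower (median 0.71; 0.74 with the block), among them H2-DMa and H2-DMb1, which load peptides onto class II molecules (1.42 ± 0.21 and 1.42 ± 0.17, adjusted p = 0.000302 and 5.43e-05). Of 8 B and plasma cell genes 4 were higher and 0 lower (median 0.73; 0.56 with the block). Ighm, the IgM heavy chain, stood at 2.06 to 2.91 with CA and 0.53 to 1.74 with UDCA (1.74 ± 0.21, adjusted p = 6.77e-05), and Jchain at 0.77 to 2.29 and -0.22 to 0.53 (1.31 ± 0.21, adjusted p = 0.000544). Of 12 T and NK cell genes 2 were higher, a share below the 20.1% of all genes, and of 4 measured neutrophil genes 0 were called. Of 27 interferon response genes 10 were higher with CA and 0 lower (median 0.30; 0.50 with the block). Gbp3, a guanylate-binding protein, stood at 1.76, 1.93, 2.09, 1.47, 1.98 and 1.94 with CA and at 0.71, 0.34, 0.46, 0.42, 0.26 and 0.94 with UDCA (1.34 ± 0.16, adjusted p = 5.43e-05). Oasl2 differed by 1.53 ± 0.28 (adjusted p = 0.0012).

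Of 30 DNA replication genes 17 were higher with CA and 0 lower, with a median difference of 0.58. With the slide block the median was 0.37 and 0 of the 30 were called, where 1135 genes of all were higher; it was 0.26 on slide 4 and 0.45 on slide 3. Uhrf1, which keeps DNA methylation through replication, stood at 4.84, 3.45, 2.93, 1.52, 2.33 and 1.44 with CA and at 1.02, 0.83, 1.07, 0.93, 0.37 and 0.73 with UDCA (1.93 ± 0.34, adjusted p = 0.00101). The CA arrays of slide 1 were the highest. Mcm6, Mcm7 and Mcm2, subunits of the replicative helicase, differed by 1.29, 1.06 and 0.98 (adjusted p = 0.000206, 0.000914 and 0.00941), and Pcna, the polymerase clamp, by 0.91 (adjusted p = 0.000729). Of 29 mitosis genes all 29 were above wild type with CA and 24 with UDCA, where 39.6% and 19.2% of all genes were. Only 3 were higher with CA than with UDCA, a share below the 20.1% of all genes. Their median difference was 0.35 (0.25 with the block, 0.21 on slide 4, -0.07 on slide 3), where that of all genes was 0.08. Mki67, which encodes Ki-67, rose by 3.06 and 2.20 (0.86 ± 0.25, adjusted p = 0.0185; not called with the block), and Stmn1, a tubulin regulator, by 2.96 and 2.24 (0.71 ± 0.21, adjusted p = 0.022). The Stmn1 call was lost in 8 of 26 alternatives, and its second probe was not called (0.52, adjusted p = 0.104).

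Of 22 immediate early genes 11 were higher with CA and 0 lower (median 0.58; 0.62 with the block, 0.33 on slide 4, 0.68 on slide 3). Egr1, a growth factor induced transcription factor, stood at 4.08, 3.97, 3.95, 2.96 and 4.24 on 5 CA arrays and at 1.33, 1.27, 2.59, 1.09, 1.81 and 2.64 with UDCA (2.04 ± 0.32, adjusted p = 0.000519). Ier3 differed by 1.76 ± 0.32 (adjusted p = 0.00125). Of 16 genes of growth hormone and STAT5 signalling 7 were higher with CA and 0 lower (median 0.36; 0.30 with the block), among them Socs3, a feedback inhibitor of cytokine receptors (1.12 ± 0.24, adjusted p = 0.00343). Of 24 female-biased liver genes 11 were lower with CA and 3 higher, a list that shares Cyp2b9, Cyp2b13 and Cyp2a4 with those above; of 22 male-biased genes 5 were lower and 0 higher, and 17 were below wild type with CA and 15 with UDCA. None of 4 measured Y-linked genes was called between the diets. Their ratios cannot show the sex of a diet group, since each sets knockout against wild type on 1 array. Phgdh and Asns, enzymes of serine and asparagine synthesis, were higher with CA (1.84 ± 0.26 and 1.30 ± 0.31, adjusted p = 0.000222 and 0.00665), as was Pmaip1, a BH3-only protein (1.83 ± 0.34, adjusted p = 0.0015).

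Of 18 endothelial markers 3 were higher with CA and 2 lower, near the shares of all genes (20.1% and 9.28%). The 2 lower members are not reported here. Emcn, Stab1 and Cd34 are genes of different endothelial beds and differed by 1.17, 0.92 and 1.30 (adjusted p = 0.000443, 0.000599 and 0.00159), Stab1 without a call under the block (0.95, adjusted p = 0.051) or by its second probe (0.44, adjusted p = 0.0781). Of 20 clock genes 6 were lower with CA and 2 higher (median -0.10), and with the slide block 1 was lower and 0 higher (median 0.015). Arntl and Nfil3 differed by -0.92 and -0.99 (adjusted p = 0.0332 and 0.00218), Arntl without a call under the block (-1.01, adjusted p = 0.0552). Of 37 genes of oxidative phosphorylation and 21 hepatocyte markers 0 were called in either direction, with medians of 0.02 and -0.29. Probes of 22 of the 37 and 18 of the 21 were saturated by the measure given above for the hepatocyte markers. Within each diet, the medians of both lists by array were lower where the knockout was in Cy3. The sign of the median difference changed in 13 and 4 alternatives. The lack of calls therefore does not show that the diets were alike in these genes.

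Pancreas genes moved with 1 slide. Cela1, an elastase of the exocrine pancreas, stood at -3.75 and -3.85 on CA 3 and CA 4, which share slide 2, at -0.50 to 0.42 on the other CA arrays, and at 0.44 to 1.74 with UDCA (-2.44 ± 0.69, adjusted p = 0.0168; not called with the block, -1.16, adjusted p = 0.0548). Cel, a pancreatic lipase, read -3.93 and -3.39 on those arrays and -1.11 to 0.11 on the other CA arrays (difference -1.68, adjusted p = 0.0437; not called with the block, -0.61). Of 20 pancreas genes 3 were measured, and the acinar markers Cpa1 and Amy2 were not among them. Their part in other results was not tested; without CA 3 and CA 4, 2517 genes were higher and 1038 lower with CA, and 70 of the 99 genes on opposite sides kept that pattern.

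**Figure D5:**
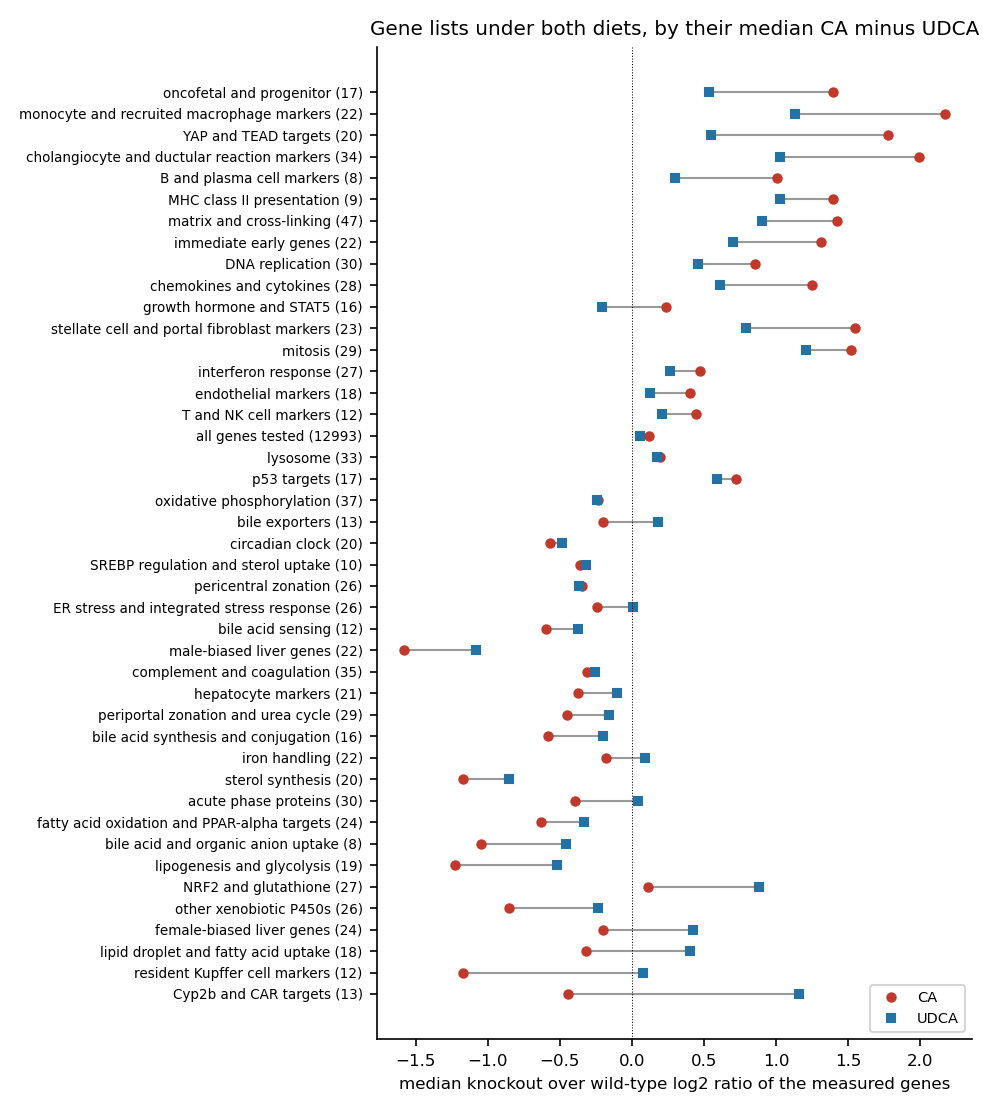
Median log2 knockout over wild-type ratio of the measured genes of each list with CA (red circles) and with UDCA (blue squares), the number of measured genes in parentheses, ordered by the median difference between diets. The oncofetal and recruited macrophage lists at the top have median differences of 1.21 and 1.15, and the Cyp2b and CAR targets at the bottom one of -1.28, with medians of -0.45 with CA and 1.16 with UDCA.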

How the data were processed

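Liver RNA was hybridised to 12 Agilent 4x44K mouse arrays with 2 dyes, 6 per diet, knockout in Cy5 on arrays 1 to 3 and in Cy3 on arrays 4 to 6. Per the file headers, the deposited spot intensities are mean and background signals from Agilent Feature Extraction 9.5.3. The scanner's log10 ratios in the deposited files are the dye-normalised red over green signals, per the file headers, and were used only as a check. The log2 values of the deposited series table, whose making is not stated, served as an alternative only, with the CA columns turned in sign, since they ran opposite to the scanner ratios. Its medians by column lay near 0, and what centring the authors applied stays unknown.

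From the intensities, limma 3.58.1 (R 4.3.3) corrected background (normexp, offset 50) and normalised within arrays (loess, control and flagged spots at weight 0). Flagged spots were set to missing (0.856% of values), spots of a probe were averaged and ratios were turned to knockout over wild type. Probes had to be well above background on 5 or more of the 6 arrays of a diet, in knockout or wild-type RNA, which left 21666 of 41174 probes with a fit. The model had both diets and the dye as terms, and p-values were adjusted by Benjamini-Hochberg over all tested probes. RefSeq (GRCm38.p6) named 19632 tested probes (15603 by accession, 4029 by symbol) and left 2034 unnamed; 12993 genes were read by their brightest probe.

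Genes were named by rule: the 15 largest differences in each direction without overlap, 10 opposite genes in each sense, up to 5 called members of each list, and a preset group. Lack of overlap in the 15 largest of each direction was thus a condition of their choice and is no separate support. Some genes that the rule takes in are not reported here. Genes with missing arrays are given from those present. The members, lists and rules were chosen with earlier results of these data known. Same-numbered arrays did not deviate together (correlations from -0.55 to 0.14), so the numbers do not pair samples. Residuals did not identify the repeated liver (highest cross-dye correlation 0.106 to 0.142), so 6 arrays per diet count as 6 and p-values are somewhat too small. The number of arrays limits the precision. In simulated data of 21666 probes, 200 were changed. The CA minus UDCA test recovered 0 of 50 changed by 0.5 (log2), 39 of 50 by 1 and 48 of 50 by 1.5, with 3.55% of calls false. The simulated noise was independent between arrays, without slide effects or a repeated liver. The data had far more called probes (3544 higher and 2317 lower), so the adjusted threshold was stricter in the simulation. The simulated shares therefore do not measure the recovery or the false calls of the test on the data. Alternatives are given in the closing section.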

Additional observations from a re-analysis of the deposited data

Results flagged for a closer look

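The diets differed, by the test of the difference itself, in 3812 genes, and lay on opposite sides of wild type in 99. Single arrays also stood apart from the other 5 of their diet. Of 296 sets of 1 gene and 1 diet tested, 24 held such an array (8.1%), where chance gives about 1 in 20; 9 were CA sets and 15 UDCA sets.

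UDCA 6, the array alone on its slide, stood apart in 6 sets: it read 2.98 for Ccl20, 2.54 for Slc51b, 1.74 for Ighm, 1.43 for Mcm6, 0.17 for Gstm4 and -1.61 for Me1. UDCA 5 read 1.04 for Ces2c, 0.47 for Adgre1, 2.79 for Col1a1 and 0.14 for Slc25a20. UDCA 4 read 1.44 for Stmn1, -1.13 for Ctsc and 1.25 for Cel, and UDCA 3 read -1.31 for Ptgds and 1.23 for Jag1. Among CA arrays, CA 4 read -1.54 for Ccl2, 2.06 for Ighm and 2.96 for Egr1, and CA 2 read -1.36 for Ugt2b1, -0.82 for Klb and 0.32 for F3. CA 1 read -1.75 for Plin4, CA 5 read 2.40 for Maff and CA 6 read -2.64 for Acacb.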

How the results depend on the processing

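Over the 148 genes named, values under the alternatives kept direction and side of the threshold in 3641 comparisons, lost the call in 216, gained one in 21 and changed sign in 43, all of the last in genes not called at first. Most losses for 1 gene were in Cel (19), Spp1 (17), Acot8 (14), Slc51b (14), Mvd (12) and Arntl (11). Centring arrays on the median in place of loess left 663 probes higher and 122 lower, 519 genes higher and 65 lower, and 1 and 6 genes on opposite sides; 579 of the 3812 called genes were still called and all 3812 kept their sign. Requiring both channels above background on all arrays left 1473 probes and 1199 genes higher. With slide as a fixed block 1352 probes and 1135 genes were higher and 650 and 419 lower; on slides 3 and 4 alone 1230 and 1028 were higher and 677 and 425 lower. Opposite genes numbered 22 of the first kind without a dye term, and 23 and 36 with slide as a random block. The replicate block, on array numbers that do not pair samples, gave 2217 genes higher and 986 lower, and 25 genes higher with CA on opposite sides. The deposited series values gave 3639 probes and 1989 genes lower, and 99 opposite genes lower with CA.

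Leaving out 1 array at a time gave 2075 to 2983 genes higher and 875 to 1384 lower, 2742 to 4047 and 1656 to 2768 probes, and 22 to 50 and 37 to 66 opposite genes. Without CA 3 and CA 4, chosen after the data were seen, Ccl2 read 0.10.

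Sign changes were as follows. With processed signals Abcb11 was 0.36 and Abcc4 -0.0084. With median centring Cyp7b1 was -0.027 and Abcb11 0.12, and with arrays scaled to one spread Abcc4 was -0.12 and Nr0b2 0.12. Without saturated spots Cyp7a1 was -0.19. With the slide block Abcb4 was -0.21, Cyp7a1 -0.98, Cyp7b1 -1.12, Abcb11 0.50, Col1a1 0.90, Ccl2 1.03 and Lcn2 0.42; on slides 3 and 4 alone they were -0.28, -1.05, -1.09, 0.50, 0.25, 0.17 and 0.42. With slide as a random block Cyp7b1 was -0.047. With the deposited series values Cyp7a1 was -0.11, Cyp7b1 -0.083, Col1a1 0.36 and Ccl2 0.22. With the mean of all probes Abcb4 was -0.24, Cyp7a1 -0.34 and Col1a1 0.28. Leaving out single arrays, the ranges were Abcb11 -0.29 to 0.14, Cyp7a1 -0.12 to 0.36, Cyp7b1 -0.19 to 0.32, Ccl2 -0.81 to 0.082, Nr0b2 -0.25 to 0.026 and Lcn2 -0.26 to 0.012. The cause was not tested.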
